A study of Mus musculus with 9 samples.

Results

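The genes Endou, Rgl1, 1100001G20Rik, Emr1, Cplx2, Gfi1 and Gfra1, which have unlike functions, were followed across 3 subsets of mouse splenic B cells. They are 7 of the 24459 rows of the deposited expression table, and they were chosen because they were higher in B cells with low or absent IgD (BDL) than in follicular (FO) B cells and are not classic B cell genes. The difference between BDL and FO B cells was therefore fixed by the choice of the genes and is given as a description, without a test. The marginal zone (MZ) libraries took no part in that choice.

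RNA was sequenced from 9 libraries, 3 for each subset, from spleens of naive mice aged 8 to 10 weeks. Each subset was sorted on 3 independent occasions from splenocytes pooled from 5 mice, so that a library is a pool and not a single animal. The sample titles carry 3 dates, each shared by 1 library of every subset, and replicate numbers 1 to 3 follow these title dates. What the date marks, and whether the libraries of a date came from the same mice, is not given in the sources used here. BDL and FO B cells shared the phenotype B220+, IgM intermediate, CD21 intermediate, CD23+ and CD93- and were divided by IgD into low and high, whereas MZ B cells were B220+, IgM high, CD21 high, CD23- and CD93-. No gene was altered in these mice, whose strain is C57/BL6 in the sample labels and B10.PL in the paper. B cell marker genes were high everywhere, with summed values over 9 genes of 4332 to 5048 FPKM in BDL, 3917 to 4460 in FO and 3717 to 4643 in MZ B cells. FPKM counts fragments per kilobase of transcript and is scaled by the depth of the library, so that levels can be set beside each other between genes. Depth estimated from the steps between low values was similar, at 0.916 to 1.23 times that of FO replicate 1.

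FO B cells recirculate through the follicles and serve T cell-dependent responses, whereas MZ B cells stay at the border of the white pulp and respond rapidly to blood-borne antigen. Outside the B lineage, the genes followed here mark macrophages (Emr1), control exocytosis in neurons (Cplx2), carry growth factor signals to developing neurons and kidney (Gfra1), repress transcription in blood cells (Gfi1), activate the small GTPase Ral (Rgl1), cleave RNA (Endou) or are secreted with a WAP domain (1100001G20Rik).

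In the BDL libraries every one of the 7 genes was above every FO library, and 6 of them had FO and MZ values that overlapped. Rgl1 was the exception, being highest in BDL, intermediate in FO and lowest in MZ B cells without overlap. Of all 11597 rows tested, 24.4% were higher in BDL than in FO B cells without overlap, and 1.64% were called higher by limma (adjusted p below 0.05 together with a change of 2-fold or more). The genes were picked on that contrast, so the count of 7 of 7 is not a result about them. By mean level in BDL the order was Endou, Gfi1, Rgl1, 1100001G20Rik, Emr1, Cplx2 and Gfra1. Of neighbours in this order, the ranges of Endou and Gfi1, of Gfi1 and Rgl1 and of Emr1 and Cplx2 overlapped, and those of the others did not. Against all rows of the table, the BDL means lay at the 79.8th percentile for Endou, the 75.4th for Gfi1, the 73.5th for Rgl1, the 69.6th for 1100001G20Rik, the 64.9th for Emr1, the 64.0th for Cplx2 and the 49.8th for Gfra1.

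**Figure D1:**
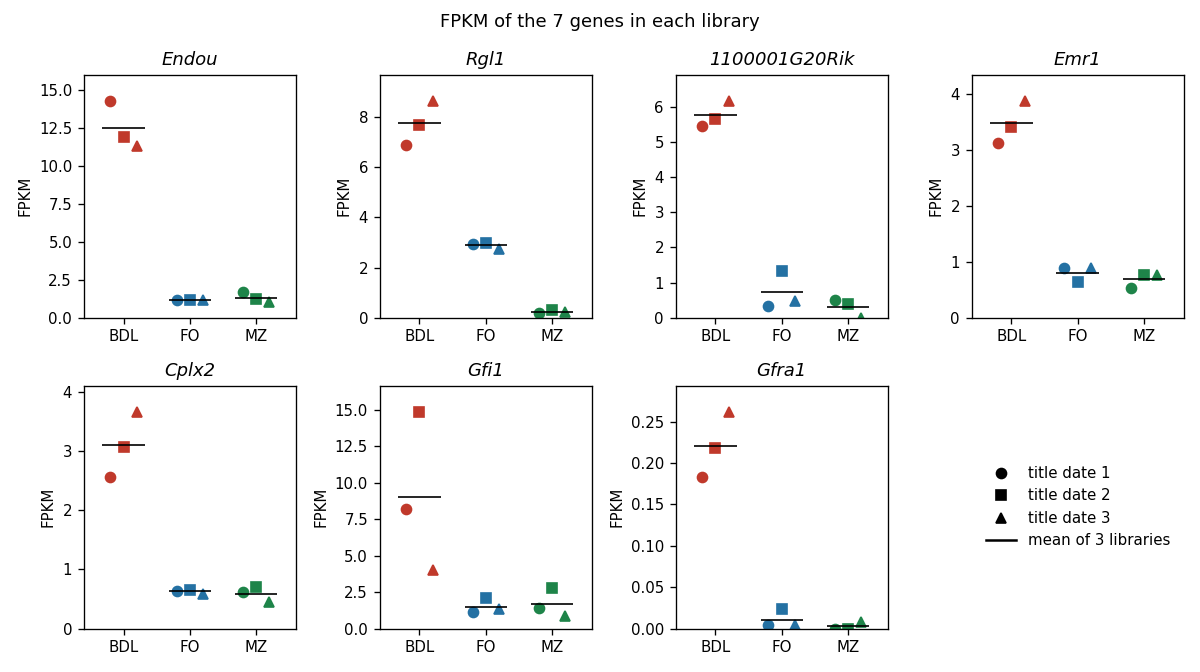
FPKM (vertical axes, from 0) of each gene in the 9 libraries by subset; symbols give the date in the sample title and the line the mean of 3 libraries. In every panel the BDL points lie above all FO and MZ points, and only Rgl1 has FO points above all MZ points.

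Emr1 encodes F4/80, an adhesion G protein-coupled receptor used as a surface marker of macrophages, also present on eosinophils. By flow cytometry in the paper, a rise of F4/80 protein on the surface of BDL was not borne out. In NCBIM37 (mm9) the gene lies on chromosome 17 from 57498109 to 57622952. Its FPKM were 3.13, 3.42 and 3.88 in BDL replicates 1 to 3, then 0.881, 0.640 and 0.887 in FO and 0.536, 0.765 and 0.759 in MZ B cells. All 3 BDL values were above the other 6, among which FO and MZ overlapped. The mean was 3.48 ± 0.378 (SD, n = 3) in BDL, which was 4.33 times that in FO (0.802 ± 0.141; SD, n = 3) and 5.06 times that in MZ B cells (0.687 ± 0.131; SD, n = 3).

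The macrophage list of 15 markers held 8 tested genes, of which 1, Mpeg1, was called higher in BDL than in FO B cells and 0 lower. Mpeg1, a pore-forming protein of phagocytes, had 10.5 to 13.8 FPKM in BDL, 3.34 to 4.99 in FO and 43.2 to 47.8 in MZ B cells. In MZ B cells it made up most of the sum of the list. Summed over the list, values were 18.8 to 26.5 in BDL, 12.8 to 17.8 in FO and 60.9 to 72.0 in MZ B cells, and the lowest 3 markers, Siglec1, Mertk and Fcgr1, did not exceed 0.0427 FPKM in any library. Cd68 (3.33 to 11.9 FPKM), Lyz2 (0.656 to 3.25) and the complement gene C1qa (0.454 to 1.01) were detected in all 9, and each overlapped between BDL and FO. The related C1qb did not overlap, with 0.562 to 0.720 FPKM in BDL and 0.370 to 0.481 in FO, but was not called (limma adjusted p = 0.256). Its MZ mean was 0.647 ± 0.229 (SD, n = 3). C1qc overlapped, with 0.602 to 0.831 FPKM in BDL and 0.507 to 0.746 in FO. Axl, under the minimum, had 0.282 to 0.383 FPKM in BDL, 0.162 to 0.214 in FO and 0.248 to 0.275 in MZ B cells, so that BDL was above FO without overlap. Csf1r, the receptor for the macrophage growth factor, lay between 0.281 and 0.626 FPKM over the 9 libraries.

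Of 7 monocyte markers, 1 was tested. That gene, Ly6c2, was called higher in BDL than in FO B cells, with 17.3, 15.6 and 14.4 FPKM in BDL, 3.11, 3.71 and 3.10 in FO and 2.42, 3.37 and 2.04 in MZ B cells. Ly6c2 is nearly identical to its neighbour Ly6c1, between which reads cannot be divided with certainty. In the paper, a rise of Ly6C protein on the surface of BDL was not borne out. The other 6 monocyte markers, including Ccr2 (at most 0.347 FPKM), Cd14 (0.125) and F13a1 (0.0363), were near 0 throughout. Of the eosinophil markers, Epx and Prg2, which encode granule proteins, did not exceed 0.0276 and 0.139 FPKM. The only tested gene of that list, Il5ra, had 19.5 to 22.8 FPKM in BDL, 13.8 to 16.3 in FO and 12.3 to 15.0 in MZ B cells. BDL was thus above FO and MZ without overlap. Il5ra was not called, as its log2 difference BDL minus FO of 0.47 was under the fold change minimum (limma, adjusted p = 0.0360). The part of other cells in the Emr1 difference was not tested, and in bulk RNA a few cells with much transcript and many cells with little cannot be told apart, which holds for all 7 genes.

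**Figure D2:**
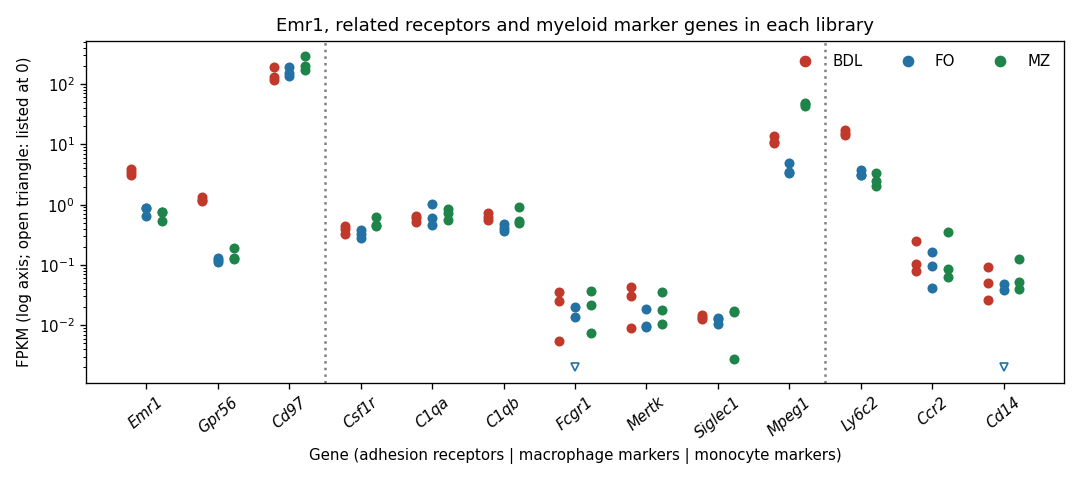
FPKM on a log axis of Emr1, the related receptors Gpr56 and Cd97, 7 macrophage markers and 3 monocyte markers in each of the 9 libraries, coloured by subset; open triangles stand for values listed at 0. Emr1, Gpr56 and Ly6c2 are highest in BDL, Mpeg1 is highest in MZ B cells, and Fcgr1, Mertk and Siglec1 are at most 0.0427.

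Gfra1 encodes a GPI-anchored receptor that binds the neurotrophic factor GDNF and signals through the receptor tyrosine kinase RET (chromosome 19, 58310094 to 58530399). It was the least abundant of the 7 genes, with 0.183, 0.218 and 0.262 FPKM in BDL, 0.00376, 0.0234 and 0.00378 in FO, and 0, 0 and 0.00829 in MZ B cells. From the estimated depth and a transcript of 4641 nt, the BDL values stand for about 47.5, 62.9 and 88.5 fragments, the FO values for about 1.0, 6.3 and 1.0 and the highest MZ value for 2.1. Summed over 3 libraries this came to 200 fragments in BDL, 8 in FO and 2 in MZ B cells. The ratio of BDL to MZ per depth was 90.8 (exact 95% interval 24.8 to 755), an interval that covers counting error only and rests on estimated fragment numbers. Mean FPKM over the 9 libraries was under 0.5, so Gfra1 was not among the rows tested.

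The partners Ret and Gdnf, both named after their values were seen, lay under the BDL values of Gfra1. Ret had 0.0287 to 0.0310 FPKM in BDL, 0.00541 to 0.0112 in FO and 0.0330 to 0.0417 in MZ B cells, and Gdnf was listed at 0 in all 9 libraries. Of 11 other genes of the GDNF receptor family, 1 was tested. This gene, Gfra2, the neurturin receptor, had 0.375 to 0.643 FPKM in BDL, 0.524 to 0.806 in FO and 0.368 to 0.645 in MZ B cells, ranges that overlapped between every pair of subsets. The 11 genes summed to 0.751 to 1.54 FPKM in BDL, 0.783 to 0.954 in FO and 0.818 to 1.16 in MZ B cells.

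Rgl1 encodes an exchange factor that loads the GTPases RalA and RalB with GTP (chromosome 1, 154363889 to 154613481). Its FPKM were 6.91, 7.69 and 8.65 in BDL, 2.93, 2.99 and 2.74 in FO and 0.172, 0.292 and 0.209 in MZ B cells. The 3 subsets did not overlap, with BDL 2.68 times FO and FO 12.9 times MZ B cells by the ratio of means. Of the 7 genes, Rgl1 had the smallest ratio of means of BDL to FO B cells.

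Related exchange factors, named after their values were seen, were arranged differently. Ralgds had 11.2 to 12.2 FPKM in BDL, 17.2 to 18.4 in FO and a mean of 11.6 ± 1.33 (SD, n = 3) in MZ B cells. Its difference of -0.57 in log2 between BDL and FO was under the fold change minimum (limma, adjusted p = 0.0102). Rgl2 had 40.9 and 39.4 FPKM in BDL replicates 1 and 2 and 15.4 in replicate 3, so that replicates 1 and 2 lay within the FO range (38.7 to 45.0) and replicate 3 below the MZ range (17.4 to 23.1). Rgl3 did not exceed 0.00680 FPKM. Of 13 tested genes of the Ral pathway besides Rgl1, 0 were called between BDL and FO B cells, and Ralb was called lower in BDL than in MZ B cells (log2 difference -1.10, SE 0.182).

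Gfi1 encodes a zinc finger repressor that acts with the demethylase LSD1 and histone deacetylases in blood progenitors, neutrophils and lymphocytes (chromosome 5, 108145674 to 108155056). Its FPKM were 8.21, 14.9 and 4.02 in BDL, 1.11, 2.06 and 1.36 in FO and 1.44, 2.76 and 0.846 in MZ B cells. BDL did not overlap with the other subsets, which overlapped with each other, but its 3 values spread more widely than those of any other of the 7 genes, with a mean of 9.04 ± 5.48 (SD, n = 3). In each subset the library of title date 2 was the highest. Within a title date BDL was 7.41, 7.21 and 2.96 times FO for dates 1 to 3, and the log2 difference BDL minus MZ was 2.43, 2.39 and 2.12.

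Gfi1 is also expressed in neutrophils and other blood cells, and several marker lists were highest on the same date. Of 15 lists, 5 had their highest summed FPKM on title date 2 in every subset, namely neutrophil, NK cell, T cell, macrophage and plasma cell markers. For neutrophil markers (13 rows) the sums on that date were 12.9 in BDL, 12.4 in FO and 15.1 in MZ B cells, against 3.90 to 8.82 on the other dates. For NK cell markers they were 7.44, 8.33 and 13.3, against 2.83 to 10.1. Irf4 made up most of the plasma cell sums, with 180, 202 and 270 FPKM on date 2 in BDL, FO and MZ B cells. Mpeg1 and Cd68 made up most of the macrophage sums, so that these 2 lists rest largely on few genes. Within the neutrophil list S100a9 followed the date, at 2.28, 2.39 and 1.95 FPKM in the BDL, FO and MZ libraries of date 2 and at most 0.265 elsewhere. Cxcr2, the most abundant gene of that list, did not, being highest on date 1 in every subset (5.69, 6.30 and 6.51 FPKM in BDL, FO and MZ B cells). Of the 4 tested neutrophil genes 0 were called between BDL and FO B cells. The part of other cells in the Gfi1 values was not tested. Without the 3 libraries of date 2, an alternative chosen after the data were seen, the Gfi1 difference BDL minus FO was 2.14 and BDL minus MZ was 2.28.

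**Figure D3:**
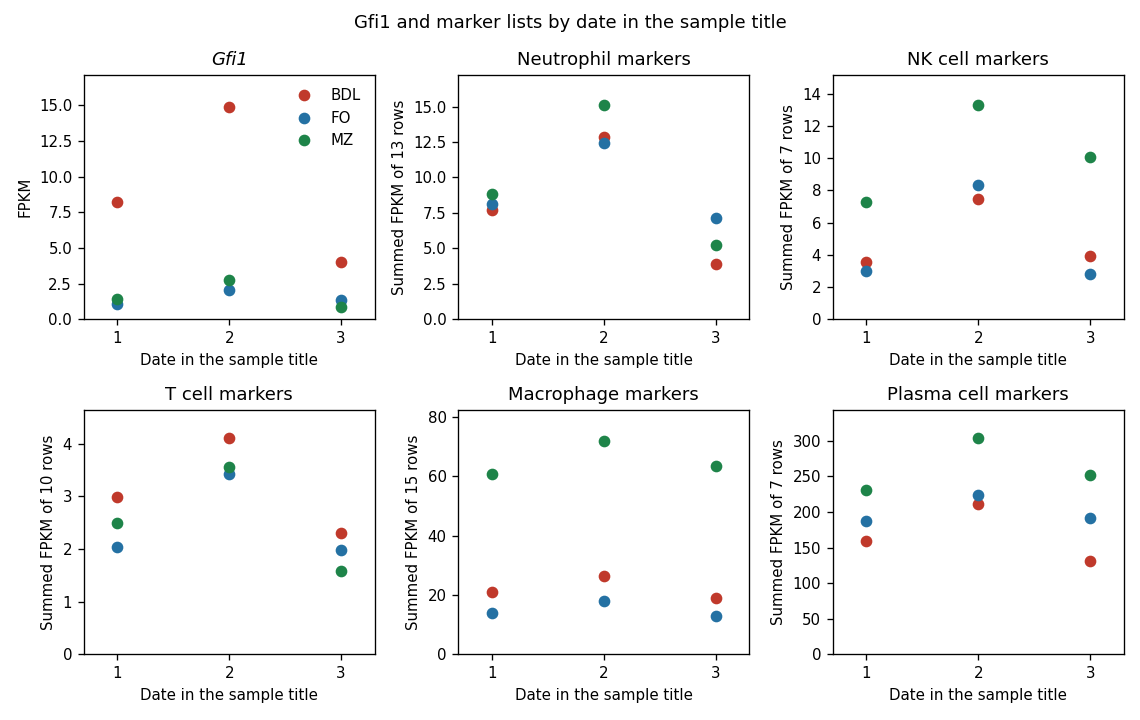
FPKM of Gfi1 and summed FPKM of 5 marker lists (vertical axes, from 0) by the date in the sample title (horizontal axes), with 1 point per library coloured by subset. The 5 lists drawn are those of 15 that were highest on date 2 in every subset. Date 2 therefore holds the highest point of every subset in their panels, and also in that of Gfi1. For Gfi1 the BDL points lie above FO and MZ on all 3 dates.

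Of 13 tested partners of Gfi1, 0 were called between BDL and FO B cells. Rcor2, a corepressor of the LSD1 complex, came closest to a call, with 0.985 to 1.11 FPKM in BDL, 0.464 to 0.574 in FO and 0.317 to 0.522 in MZ B cells. Its log2 difference BDL minus FO was 0.94 (SE 0.199, limma adjusted p = 0.0273), just under the minimum of 1, and against MZ B cells it was called higher (1.18, SE 0.199). The paralogue Gfi1b did not exceed 0.0396 FPKM in any library.

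Cplx2 encodes complexin 2, a small protein that binds the SNARE complex and sets when vesicles fuse (chromosome 13, 54472713 to 54485278). Its FPKM were 2.57, 3.07 and 3.67 in BDL, 0.630, 0.658 and 0.592 in FO and 0.623, 0.701 and 0.443 in MZ B cells. The BDL values were separate and the FO and MZ values overlapped. The mean was 3.10 ± 0.549 (SD, n = 3) in BDL, 4.95 times that in FO and 5.27 times that in MZ B cells. Its paralogues Cplx1 and Cplx3 did not exceed 0.0227 and 0.101 FPKM. Of 27 tested genes of the exocytic SNARE machinery 0 were called between BDL and FO B cells.

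Endou encodes an endonuclease that cuts RNA at uridines (chromosome 15, 97541450 to 97561836). Its FPKM were 14.3, 11.9 and 11.3 in BDL, 1.17, 1.18 and 1.20 in FO and 1.67, 1.24 and 1.01 in MZ B cells. It was the most abundant of the 7 genes in BDL and 10.6 times its FO mean, while the FO values lay within those of MZ B cells. None of 25 tested ribonuclease genes was called between BDL and FO B cells.

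1100001G20Rik, named Wfdc21 in RefSeq, encodes a small secreted protein with a whey acidic protein domain (chromosome 11, 83560442 to 83566144). Its FPKM were 5.46, 5.66 and 6.17 in BDL, 0.339, 1.34 and 0.477 in FO and 0.513, 0.378 and 0 in MZ B cells. The BDL values were close together, whereas FO replicate 2 was above the other FO libraries and MZ replicate 3 was listed at 0. The annotated transcript has only 434 nt, and the FPKM of so short a transcript depends on how its length was corrected. Its relative Wfdc17, which lies 40.7 kb away in the same cluster, had 6.87 to 7.90 FPKM in BDL, 10.2 to 12.8 in FO and 0.198 to 0.611 in MZ B cells. Wfdc17 was not called between BDL and FO B cells (-0.59, SE 0.275, limma adjusted p = 0.231) and was called higher in BDL than in MZ B cells (4.02, SE 0.275). The 2 genes of this cluster thus had different orders of subsets.

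The comparison with MZ B cells used libraries in which the genes had not been picked, although the BDL libraries had been used for the choice. Differences are given in log2(FPKM + 0.1), which draws low values toward each other. By limma over 11597 rows, all 6 tested genes were called higher in BDL than in MZ B cells, where 3.47% of all rows were. The values of all 7 genes did not overlap between these subsets, where 22.6% of all rows were higher in BDL without overlap. Rgl1 differed by 4.61 (SE 0.152, adjusted p = 1.78e-06), which was rank 14 of the rows tested, 1100001G20Rik by 4.25 (SE 0.687, adjusted p = 0.00252, rank 22) and Endou by 3.19 (SE 0.169, adjusted p = 8.26e-06, rank 66). Gfi1 (2.31, SE 0.531), Cplx2 (2.22, SE 0.190) and Emr1 (2.19, SE 0.182) lay at ranks 153, 161 and 165, with adjusted p from limma of 0.0134, 8.05e-05 and 6.91e-05. The difference of 1100001G20Rik was 3.44 without MZ replicate 3, in which it is listed at 0, and ranged from 2.40 with 1 added to 5.51 with 0.01 added. It then exceeded that of Rgl1 with 0.01 added (5.08) and without MZ replicate 1 (4.74 against 4.49).

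Gfra1 differed by 1.64. Fitted without the minimum, it was called as well (SE 0.106, limma adjusted p = 4.80e-05), where 2.8% of rows were called higher. The two-sided exact permutation test gave p = 0.1 for each of the 7 genes, the smallest p that 3 libraries against 3 allow. For each gene the 3 BDL libraries lay above the 3 MZ libraries.

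Between MZ and FO B cells, 1 of 6 tested genes was called. Rgl1 was lower in MZ (log2 difference -3.22, SE 0.152, limma adjusted p = 3.30e-06, exact p = 0.1), where 3.39% of all rows were called lower and 22.5% were lower without overlap. The other genes missed the threshold, and their values overlapped between the 2 subsets. The 95% interval of the difference ran from -0.29 to 0.49 for Endou (adjusted p = 0.706 from limma), from -0.62 to 0.22 for Emr1 (0.474) and from -0.53 to 0.34 for Cplx2 (0.763), all within a 2-fold change. It was wider for Gfi1 (-1.17 to 1.26, adjusted p = 0.968 from limma) and for 1100001G20Rik (-2.79 to 0.37, 0.242), so that a 2-fold difference between FO and MZ B cells was not detectable for these genes. For Gfra1, fitted without the minimum, it was -0.34 to 0.15. Gfra1 had at most 0.0234 FPKM in FO and 0.00829 in MZ B cells, well under the 0.1 added. A 2-fold difference could therefore not appear on this scale, and the interval does not bear on the ratio of the 2 subsets for Gfra1. This comparison shares its MZ libraries with that of BDL and MZ B cells and its FO libraries with the choice of the genes.

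**Figure D4:**
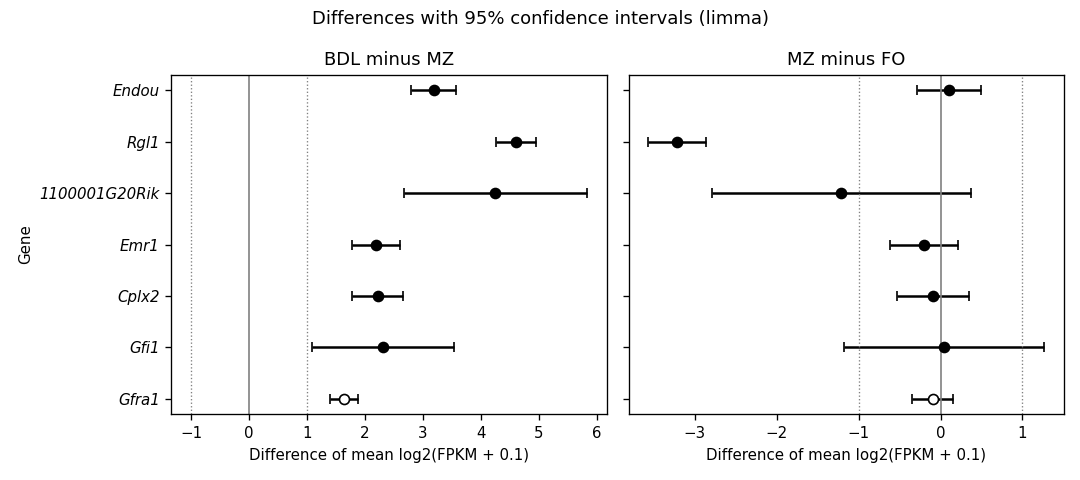
Differences of mean log2(FPKM + 0.1) with 95% confidence intervals from limma for BDL minus MZ (left) and MZ minus FO (right); dotted lines mark a 2-fold change, and the open point is Gfra1, fitted without the minimum. All 7 genes lie above 1 on the left, and only Rgl1 lies beyond a 2-fold change with its whole interval on the right. The FO and MZ values of Gfra1 lie below the 0.1 added, which keeps its difference on the right small.

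Single genes of other marker lists were called between BDL and FO B cells. Of 7 B1 cell markers, 4 were called higher in BDL (Cd5, Spn, Bhlhe41 and Zbtb32), with sums of 36.8 to 42.8 FPKM in BDL, 21.5 to 24.7 in FO and 11.0 to 20.3 in MZ B cells. These sums rest largely on Ahnak, with means of 18.4 FPKM in BDL, 15.4 in FO and 1.83 in MZ B cells. Between MZ and FO B cells, 3 of the markers were called higher in MZ (Cd5, Bhlhe41 and Itgam) and 2 lower (Spn and Ahnak). Of 7 MZ B cell markers, 3 were called higher (Cd9, Myof and Plac8), with sums of 696 to 779 in BDL, 348 to 441 in FO and 1745 to 2136 in MZ B cells. Cd93 was called higher of 3 tested transitional markers, whose sums were 457 to 696 in BDL and 305 to 367 in FO B cells. Sdc1 and Derl3 of 6 tested plasma cell markers were called higher, while the sums of that list overlapped (131 to 211 in BDL, 187 to 224 in FO), and so did those of the germinal centre list (32.8 to 35.5 and 31.7 to 37.9), of whose 3 tested genes Rgs13 was called higher. The plasma cell receptor gene Tnfrsf17 was listed at 0 in all BDL and FO libraries. Among FO, dendritic, T and NK cell markers 0 of 6, 3, 1 and 4 tested were called. Klrd1 of the NK list had 0.766 to 1.25 FPKM in BDL and 0.0964 to 0.672 in FO B cells (log2 difference 1.58, limma adjusted p = 0.0846). Klrb1c, under the minimum, had 0.365 to 0.437 in BDL and 0.0824 to 0.302 in FO B cells. A rise of its protein NK1.1 on the surface of BDL was not borne out in the paper. Klrd1 and Klrb1c did not overlap between BDL and FO B cells. The remaining NK genes did, as did the sums of that list (3.55 to 7.44 in BDL, 2.83 to 8.33 in FO). The part of these cell types in the values of the 7 genes was not tested.

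In log2(FPKM + 0.1), the SD within subsets was 0.184 to 0.224 for Endou, Rgl1, Emr1 and Cplx2, near the median of all tested rows (0.180). It was 0.752 for Gfi1 and 0.970 for 1100001G20Rik, at the 96.0th and 96.7th percentile. Over the 9 libraries, Pearson correlations between the genes ranged from 0.635 (Rgl1 with Gfi1) to 0.983 (Cplx2 with Gfra1). These 9 points fall into 3 subsets, were the basis of the choice, and give mainly the subset means.

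By the same measure over all tested rows, the pattern of Rgl1 was most like that of Csrp2 (r = 0.997, a LIM domain protein), Atp1b1 (0.996, a subunit of the sodium pump) and Capn5 (0.995, a calpain). These shared the order BDL, FO, MZ, with Csrp2 at 10.6 ± 1.03, 4.71 ± 0.712 and 0.795 ± 0.134 FPKM (SD, n = 3). Cplx2 was most like Rgs13 (0.996, a regulator of G protein signalling), Hbb-bt (0.993, a beta globin) and Wnt10a (0.982, a Wnt ligand), and Gfra1 was most like Hivep3 (0.993), Tfdp2 (0.987) and Rgs13 (0.984). Emr1 was also most like Hivep3 (0.987), a zinc finger protein with 5.67 ± 0.697 FPKM in BDL, 0.974 ± 0.0903 in FO and 0.823 ± 0.108 in MZ B cells (SD, n = 3), followed by Rcc2 (0.986) and Tspan14 (0.981).

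Endou was most like Fndc9 (0.989), Hbb-bt (0.986) and Cdca7 (0.984), of which Hbb-bt had 10.4 ± 1.23 FPKM in BDL, 1.84 ± 0.102 in FO and 2.14 ± 0.517 in MZ B cells (SD, n = 3). Of 3 tested erythroid rows, Hbb-b1, another beta globin, was called higher in BDL than in FO B cells (5.13 to 6.42 against 1.19 to 2.02 FPKM, log2 difference 1.94, limma adjusted p = 0.00542). The 2 rows of Hba-a1 were not called, Alas2 lay at 0.125 to 0.305 FPKM and Car1 was listed at 0 in every library. The sums of the list were 8.37 to 9.55 FPKM in BDL, 2.40 to 6.03 in FO and 4.53 to 7.99 in MZ B cells, and the part of erythroid RNA in the Endou values was not tested. 1100001G20Rik was most like Tmem263 (0.989), Casc5 (0.982) and Egfl6 (0.968). Gfi1 was most like Slc16a1 (0.988, a lactate transporter), Gm10052 (0.960) and Armcx6 (0.957), whose BDL means were 3.19, 176 and 0.960 FPKM.

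Genes related to the 7 by family or pathway gave a separate view. The 7 lists, without the members, held 169 rows, of which 83 were tested. Between BDL and FO B cells 0 of these were called by limma, where 1.91% of all rows were called in either direction. At an unadjusted limma p under 0.05, 15 were higher and 4 lower. The share of all tested rows at that level was not computed, so these counts cannot be read as a trend. The median log2 difference was 0.06, as against 0.05 over all tested rows. Between BDL and MZ B cells, 3 were called higher and 5 lower, a share of 9.64% next to 7.8% of all rows. Those higher in BDL were Wfdc17, Rcor2 and Samhd1, a nuclease for dNTP, RNA and DNA (1.66, SE 0.103). Among those lower were Ralb and the ribonuclease genes Rnase4 (-1.73) and Zc3h12c (-3.86). Between MZ and FO B cells, 6 were called higher, among them Ralb, Rnase4 and Zc3h12c, and 2 lower, namely Wfdc17 (-4.62) and Samhd1 (-1.48). The share was again 9.64%, with 8.92% over all rows.

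The minimum of 0.5 FPKM on the mean of 9 libraries removes genes that are low in most libraries, and without it 3 relatives of Emr1 were called higher in BDL than in FO B cells, where 1.44% of rows were. Gpr56, an adhesion receptor of cytotoxic lymphocytes and neural progenitors, had 1.34, 1.18 and 1.14 FPKM in BDL, 0.114, 0.123 and 0.129 in FO and 0.126, 0.193 and 0.130 in MZ B cells. Its log2 difference was 2.57 against FO (SE 0.131, limma adjusted p = 2.96e-04) and 2.41 against MZ B cells (adjusted p = 2.53e-05). Lphn2 had 0.598 to 0.811 FPKM in BDL, 0.119 to 0.211 in FO and 0.179 to 0.247 in MZ B cells, and Celsr1 had 0.275 to 0.334, 0.0614 to 0.0988 and 0.0935 to 0.137. The most abundant adhesion receptor, Cd97, did not follow them, with 117 to 189 FPKM in BDL, 138 to 194 in FO and 172 to 291 in MZ B cells.

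The genes around the 7 were compared to see whether a stretch of chromosome was higher in BDL. For each gene the nearest tested row on either side was taken, which gave 14 neighbours at 0.191 to 5784 kb, with a median of 47.7 kb. By limma 1 of 14 was called higher in BDL than in FO B cells, next to 1.64% of all rows, and 0 were called lower. This was Rapgef3, an exchange factor activated by cyclic AMP (chromosome 15, 97575384 to 97598403), 13.5 kb from Endou. Rapgef3 had 2.75, 2.26 and 1.62 FPKM in BDL, 1.04, 0.742 and 0.837 in FO and 0.229 ± 0.0471 (SD, n = 3) in MZ B cells, so that its BDL and FO values did not overlap. The log2 difference BDL minus FO was 1.23 (SE 0.232, adjusted p = 0.0190), and the call was lost without BDL replicate 1 or 2, without FO replicate 2 or 3, without the libraries of title date 2, or with 1 in place of 0.1 added.

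The other 13 neighbours differed by -0.59 to 0.42. On the other side of Endou, Rpap3, 5.20 kb away, differed by 0.30 (SE 0.145). Arpc5, 0.191 kb from Rgl1, differed by 0.36 (SE 0.135, adjusted p = 0.144 from limma), and Heatr6, 1.05 kb from 1100001G20Rik, by 0.14 (SE 0.135). The nearest genes to Gfi1, Evi5 and Rpap2, differed by 0.02 and -0.08.

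**Figure D5:**
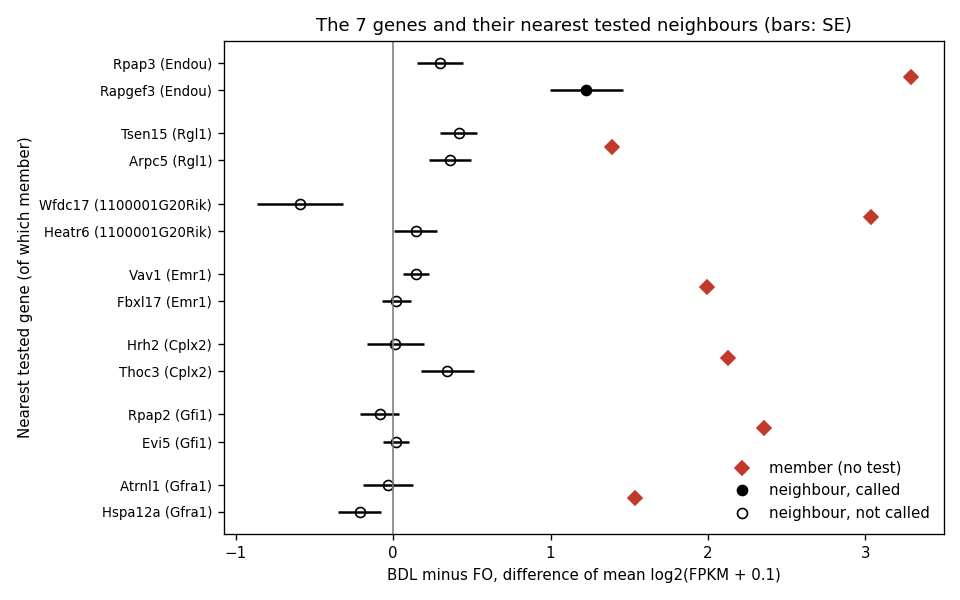
Difference BDL minus FO in log2(FPKM + 0.1) for the 7 genes (red diamonds, not tested) and for the nearest tested gene on either side of each (circles with SE bars; filled, called). Of the 14 neighbours, Rapgef3 is the filled one at 1.23, and the others lie between -0.59 and 0.42.

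Promoter sequences were read for the genes held in the RefSeq table (GRCm38.p6). Rgl1, Cplx2, Gfi1 and Gfra1 were matched, with 6 promoters in all, and Endou, 1100001G20Rik and Emr1 had no entry. The 250 bases before each start were searched on both strands for motifs of 6 letters. The E box CAGCTG, a site of E proteins, was held by 1 promoter each of Cplx2 and Gfra1, and by 4271 of all 32851 promoters. The other E box searched, CAGGTG, was held by 1 promoter each of Rgl1 and Gfi1, and by 17.2% of all promoters. Either E box was thus held by 4 promoters of 6 and by 27.7% of all. The core bound by Gfi1 itself, AAATCA, was held by 0 of the 6 and by 12.4% of all promoters, and GAGGAA, bound by PU.1, by 0 of the 6 and by 23.3%. The letters are a description of these windows and show nothing about binding. The 4 promoters with an E box are printed 5′ to 3′ on the strand of the gene, with the E box in capitals. The Rgl1 window (chr1:152625218-152625467) holds CAGGTG in reverse complement, 171 bases before the start, and the Gfi1 window (chr5:107725806-107726055) likewise, 42 bases before. The window of Cplx2 (chr13:54302306-54302555) holds its E box 162 bases before the start and that of Gfra1 (chr19:58455399-58455648) 90 bases before.
Rgl1: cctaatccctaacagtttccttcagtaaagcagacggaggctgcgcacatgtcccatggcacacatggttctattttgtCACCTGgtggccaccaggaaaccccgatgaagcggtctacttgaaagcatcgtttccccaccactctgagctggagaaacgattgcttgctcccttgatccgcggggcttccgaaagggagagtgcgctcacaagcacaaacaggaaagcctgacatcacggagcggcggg
Cplx2: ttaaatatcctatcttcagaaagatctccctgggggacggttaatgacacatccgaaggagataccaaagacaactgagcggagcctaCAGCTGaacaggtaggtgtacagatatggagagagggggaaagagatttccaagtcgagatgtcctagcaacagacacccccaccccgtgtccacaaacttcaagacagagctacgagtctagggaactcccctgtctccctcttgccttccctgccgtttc
Gfi1: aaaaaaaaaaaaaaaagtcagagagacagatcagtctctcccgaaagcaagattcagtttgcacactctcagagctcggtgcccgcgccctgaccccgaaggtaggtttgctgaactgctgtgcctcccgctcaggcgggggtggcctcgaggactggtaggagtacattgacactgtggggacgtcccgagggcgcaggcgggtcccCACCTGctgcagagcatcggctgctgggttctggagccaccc
Gfra1: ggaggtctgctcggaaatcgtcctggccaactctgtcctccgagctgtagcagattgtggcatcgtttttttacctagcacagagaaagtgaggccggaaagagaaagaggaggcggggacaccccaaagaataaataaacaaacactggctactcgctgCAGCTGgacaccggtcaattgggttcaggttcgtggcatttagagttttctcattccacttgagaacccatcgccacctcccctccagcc
No 2 of these windows held the E box at the same distance from the start. The further promoters of Rgl1 and Gfi1 held none.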

How the data were processed

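RNA-seq of 9 libraries of sorted splenic B cells was analysed, 3 each of BDL, FO and MZ, grouped by the subset named in the sample labels. The authors aligned the reads to mm9 with TopHat2 2.1.0 and deposited 1 FPKM per gene and library, computed with Cufflinks, whose version and annotation are not given in the sources used here. The authors' table of Cuffdiff fold changes and p-values was not used. The labels describe single-end reads without strand and the paper a stranded kit. The values are not counts, and depth was inferred from genes with 1 transcript of at least 3000 nt, for which 66.5% to 74.8% of low values lay within 0.1 of whole fragments, and fragment numbers follow from it.

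After 0.1 was added, FPKM were turned into log2 values. Rows whose mean reached 0.5 FPKM (11597) entered limma 3.58.1 (R 4.3.3) (eBayes with a trend), with all 9 libraries in one fit, subset as the only term and Benjamini-Hochberg adjustment. Calls needed an adjusted p below 0.05 and a 2-fold change. Single genes were also tested by a two-sided exact permutation test. In simulated data for BDL against MZ B cells over 11597 genes, 176 of 200 genes (88%) changed by 1.5 in log2 were called, with 2 false calls. The simulation drew independent normal noise in log2 with the SD of each gene, without counting noise or an effect of title date. It does not measure the error rate in the real data.

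The genes, lists and tests were chosen with earlier results of these data known. Named are the 7 genes, the 3 tested rows most correlated with each, the nearest tested neighbours, and family genes that were called (or up to 3 of a family with none); other names were chosen after their values were seen. Some family genes that were called are not reported here. Positions are those of GENCODE M1 (NCBIM37), where 87.3% of symbols were found, and 1076 further symbols were matched through RefSeq synonyms for the neighbours.

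Replicate numbers follow the dates in the sample titles, and a block on them was tried as an alternative, as it is no term in the methods of the paper. Other alternatives were 0.01 or 1 added, no minimum or one of 1 FPKM, the 6 compared libraries alone, upper quartile scaling, quantile normalization, each library left out, and, chosen after the data were seen, no libraries of title date 2. Figures were drawn with matplotlib 3.10.9.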

Additional observations from a re-analysis of the deposited data

How the results depend on the processing

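Under the 18 alternatives tried, all 6 tested members were called higher in BDL than in MZ B cells (7 with no minimum), and Rgl1 alone was called between MZ and FO B cells. Adjusted p from limma for BDL against MZ B cells ranged from 1.13e-06 to 0.00145 for Rgl1, from 3.92e-06 to 0.00429 for Endou, from 2.90e-05 to 0.00539 for Emr1, from 5.68e-05 to 0.00790 for Cplx2, from 1.33e-04 to 0.0371 for 1100001G20Rik and from 0.00114 to 0.0493 for Gfi1. Directions between MZ and FO B cells, none past the threshold, turned for Endou with quantile normalization (-0.076) and without MZ replicate 1 (-0.076 to 0.26 over the libraries left out), for Cplx2 without MZ replicate 3 (-0.21 to 0.068), and for Gfi1 with quantile normalization (-0.091), without title date 2 (-0.14), without FO replicate 1 (-0.14) or 3 (-0.0054) and without MZ replicate 2 (-0.37 to 0.43). With 1 added, all genes called numbered 78 higher and 16 lower in BDL than FO (190 and 31 in the report's fit), 267 higher in BDL than MZ (402) and 406 higher in MZ than FO B cells (642), relatives called numbered 2 lower in BDL than MZ and 3 higher in MZ than FO, and 0 neighbours were called. With 0.01 added 1 relative, Rcor2, was called higher in BDL than FO B cells, and with no minimum 3 were, with 7 higher and 8 lower in BDL than MZ B cells. The 6 compared libraries alone gave 17 genes lower in BDL than FO B cells. Without title date 2, chosen after the data were seen, 64 genes were higher and 14 lower and 0 neighbours were called. Leaving out 1 library gave 15 to 31 genes lower in BDL than FO B cells (17 without FO replicate 1 and 15 without FO replicate 3), 0 to 1 relatives higher (1, Rcor2, without FO replicate 2) and 0 to 1 neighbours. The replicate block on the title dates, which are not stated to pair the libraries, gave 49 genes lower in BDL than FO B cells in place of 31 and changed no call of a member. Deviations of same-numbered libraries from their subset means correlated at -0.062 to 0.147 between BDL and FO, up to 0.244 between BDL and MZ and 0.008 to 0.024 between MZ and FO B cells, and a library correlated best with its own number in 14 of 18 cases. The cause of these changes was not tested. Depth limits Gfra1 and the MZ values of 1100001G20Rik, which rest on few fragments.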
